A study of Mus musculus with 12 samples.

Results

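The genes described here are those of interleukin 1 (IL-1) and of the inflammasome, the protein complex that releases it. They were measured in bone marrow cells sorted by endothelial surface markers, from mice with cardiovascular disease and from naive controls. The 10 genes were chosen by name: the ligands *Il1a* and *Il1b*, the antagonist *Il1rn*, the receptor chains *Il1r1*, *Il1r2* and *Il1rap*, the related cytokine *Il18*, and the inflammasome genes *Nlrp3*, *Casp1* and *Pycard*. They are 10 of the 55421 genes in the count table, and all 10 passed the filter on low counts, as 15999 genes did. RNA was sequenced from 12 libraries in 4 groups of 3, all from mice aged 20 weeks. Naive controls, mice made hypertensive by chronic infusion of angiotensin II, and mice with acute myocardial infarction (MI, by permanent ligation of a coronary artery) were of strain C57BL/6J. The labels place the MI libraries at day 2, while the study's text names a different day. The atherosclerosis group was of strain Apoe(tm1Unc), which lacks apolipoprotein E from birth in every tissue, and was fed a western diet, so genotype, diet and disease cannot be told apart in it. Marrow cells were depleted of lineage-positive cells and sorted as negative for TER-119, CD41 and CD45, high for CD31 and positive for SCA-1. Libraries are named by the replicate numbers 2, 3 and 4 of their labels, and all comparisons with a disease share the 3 controls.

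IL-1α and IL-1β, encoded by *Il1a* and *Il1b*, bind the receptor IL1R1, which then recruits the accessory chain IL1RAP and signals through MYD88 and IRAK kinases to the transcription factor NF-κB. The antagonist encoded by *Il1rn* occupies IL1R1 without signaling, and IL1R2 binds the ligands but lacks the intracellular signaling domain, so it acts as a decoy. IL-1β and IL-18 are made as inactive precursors and cut by caspase-1 (*Casp1*), which is itself activated when the sensor NLRP3 assembles with the adaptor ASC, encoded by *Pycard*. In the marrow, IL-1 is known to act on blood stem and progenitor cells. Neutrophils, monocytes and macrophages are well-known sources of IL-1β, and endothelial cells are a classic responder through IL1R1.

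*Il1a* and *Il1b* lie side by side on chromosome 2 and are read in the same direction, 54.6 kb apart, yet their transcripts stood at very different levels. Their promoters are shown because of this. The windows hold the 120 bases before each start site, 5′ to 3′ on the gene's strand, from RefSeq on GRCm38.p6. All 10 genes had entries in that table. Capitals mark letters that match TATAAA, the TATA box, or TTNNGNAA, a motif of the C/EBP factors. The match GAGGAA, the core of a PU.1 motif, overlaps the C/EBP match of *Il1a* and is within its capitals.
Il1a, chr2:129309973-129310092 (minus strand): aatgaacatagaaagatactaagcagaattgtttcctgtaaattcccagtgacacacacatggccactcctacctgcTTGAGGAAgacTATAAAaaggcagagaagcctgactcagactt
Il1b, chr2:129371140-129371259 (minus strand): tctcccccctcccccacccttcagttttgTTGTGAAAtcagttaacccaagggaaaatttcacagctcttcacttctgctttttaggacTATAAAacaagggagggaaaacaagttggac

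Both windows held TATAAA on the gene's own strand, beginning 32 bases before the start site of *Il1a* and 31 bases before that of *Il1b*. On both strands, TATAAA was found in 13.6% of the 32851 windows of 300 bases in the table (250 before to 50 after a start site), TTNNGNAA in 40.7% and GAGGAA in 28.3%. Over the same 300 bases, 4 of the 14 windows of the 10 genes held TATAAA (*Il1a*, *Il1b*, *Il1rn* and *Il18*), 9 held TTNNGNAA and 4 held GAGGAA. The TATAAA matches of *Il1rn* and *Il18* lay on the opposite strand, 14 bases after and 175 bases before a start site. The consensus motif of NF-κB was in 8.46% of windows and in 2 of the 14 windows of these 10 genes, 1 each of *Il1r1* and *Nlrp3*. These matches describe letters and were not related to the measured levels.

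Counts on genes totalled between 17007088 and 25136936 per library, so that 3 counts, the least taken as measured, amounted to 0.116 to 0.176 CPM (reads on a gene relative to the library total, after TMM scaling), a floor that covers counting error only. *Apoe* checked the labels and stood between 7.28 and 14.8 CPM in the 3 atherosclerosis libraries and between 450.5 and 1503 CPM in the other 9. Markers of endothelial cells were present but low: 20 genes together held 177 to 310 CPM, with *Cdh5* between 2.00 and 4.19 CPM and *Pecam1* between 17.2 and 31.8 CPM. Markers of neutrophils, 14 genes, held 24840 to 84450 CPM, and erythroid markers, 14 genes, held 10520 to 46280 CPM. *Ptprc*, which encodes the CD45 protein that the sort excluded, stood between 463 and 814 CPM. Since these are bulk samples, fewer cells of a type and less RNA per cell cannot be told apart. The levels below are those of the sorted samples as a whole, and which cells held the transcripts was not tested. Of the 12 libraries, atherosclerosis replicate 2 correlated least with the others (mean Pearson's r of 0.960 of log2 CPM across genes), and it held the lowest neutrophil sum, while MI replicate 2 held the highest.

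All 10 genes were measured in every library, with between 24 and 3552 counts. Compared per length as RPKM (CPM per 1000 bases of all annotated exons of a gene joined), the decoy receptor and IL-1β led. This order depends on the lengths, 5535 bases for *Il1rn* and 3800 for *Pycard* against 1908 for *Il1r2* and 1907 for *Il1b*. In CPM, without length, medians were 80.96 for *Pycard*, 74.57 for *Il1rn*, 59.87 for *Il1r2* and 52.01 for *Il1b*. *Il1r2* averaged 39.5 ± 21.95 RPKM (SD, n = 12) and *Il1b* 31.7 ± 11.9 RPKM (SD, n = 12). *Pycard* averaged 20.6 ± 4.09 RPKM, *Casp1* 20.3 ± 2.29, *Il1rn* 13.5 ± 4.75 and *Il18* 10.8 ± 2.52 (SD, n = 12 each). The other 4 genes followed at a distance, with *Nlrp3* at 2.703 ± 0.826 RPKM, *Il1rap* at 1.85 ± 0.286, *Il1a* at 1.73 ± 0.851 and *Il1r1*, the signaling receptor, at 0.714 ± 0.193 (SD, n = 12 each). Among the 12986 protein-coding genes tested, *Il1r2* stood at percentile 88.7 of mean RPKM and *Il1r1* at percentile 18.9. Only between *Il18* and *Nlrp3* did neighbours in this order keep apart in all libraries, with a lowest *Il18* value of 8.60 RPKM and a highest *Nlrp3* value of 4.58 RPKM. The ranges of the other 8 neighbouring pairs overlapped. Per length, *Il1r2* was above *Il1b* in 6 of 12 libraries and *Pycard* above *Casp1* in 5 of 12, so these pairs had no order. *Casp1* was above *Il1rn* per length in 12 of 12 and *Nlrp3* above *Il1rap* in 11 of 12. In CPM the median of *Casp1* was 30.52, below those of *Pycard* and *Il1rn*.

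**Figure D1:**
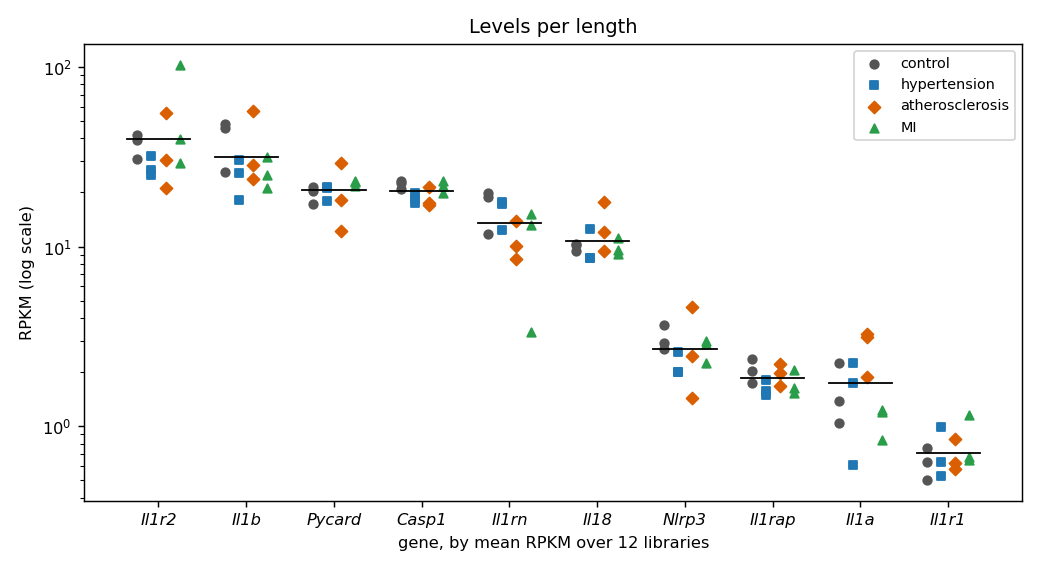
RPKM on a log scale (y axis) of the 10 genes (x axis, ordered by mean) in each of the 12 libraries, with colours and markers for the 4 groups and a line at the mean of 12. Values fall from 39.5 RPKM for *Il1r2* to 0.714 for *Il1r1*, with a step between *Il18* and *Nlrp3*, and the *Il1rn* point far below its gene's line is MI replicate 2.

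The genes also differed in how steady they were. *Casp1* varied least, with a highest library 1.36 times its lowest, followed by *Il1rap* at 1.58 times and *Il18* at 2.05 times. *Il1rn* varied most, 5.89 times, followed by *Il1a* at 5.33 times and *Il1r2* at 4.83 times. The biological coefficient of variation within groups, as edgeR estimated it, was 0.141 for *Casp1* and 0.361 for *Il1a*, against a median of 0.225 over all genes tested.

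*Il1b* reached 91.2, 86.9 and 49.7 CPM in the controls (replicates 2, 3 and 4). It stood at 34.7, 48.7 and 57.5 CPM in hypertension, 45.1, 54.3 and 108 CPM in atherosclerosis, and 40.5, 48.0 and 59.9 CPM after MI. Control replicates 2 and 3 lay above every hypertension and MI library, but control replicate 4 lay within both groups, and atherosclerosis ran from below the controls to the highest value of all. Means were 75.9 ± 22.8 CPM in controls, 47.0 ± 11.5 in hypertension, 69.3 ± 34.2 in atherosclerosis and 49.5 ± 9.80 after MI (SD, n = 3 each). Against controls, the log2 fold change was −0.69 in hypertension (SE 0.32, edgeR quasi-likelihood test, Benjamini-Hochberg adjusted p = 0.951, 95% interval −1.39 to 0.01) and −0.62 after MI (SE 0.32, adjusted p = 1, interval −1.32 to 0.08), so neither passed the test. In atherosclerosis it was −0.13 (SE 0.32, adjusted p = 0.968).

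*Il1a*, which encodes the ligand that needs no inflammasome to be active, was low, at 24 to 144 counts, though above the floor of 3 counts. It stood at 4.43, 2.06 and 2.71 CPM in controls and at 4.45, 3.46 and 1.20 CPM in hypertension. In atherosclerosis it reached 6.40, 3.70 and 6.16 CPM, from 63 to 144 counts, and after MI 1.66, 2.43 and 2.38 CPM, from 30 to 46 counts. The 2 highest of all 12 libraries were atherosclerosis replicates 2 and 4, but replicate 3 lay within the controls. The difference from controls was log2 0.83 in atherosclerosis (SE 0.42, edgeR, adjusted p = 0.86, interval −0.09 to 1.74), −0.50 after MI (SE 0.44, adjusted p = 1) and −0.01 in hypertension (SE 0.43, adjusted p = 0.999). *Gm14023*, on the opposite strand over *Il1a*, held 3 to 19 counts, at most 37.5% of the *Il1a* count of the same library, and since the strand setting of the counting is not stated, reads of this pair may not be fully separated. The same holds for *Il1bos* over *Il1b*, at most 5.92% of the *Il1b* count.

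*Il1rn*, the antagonist, had the largest ratio of highest to lowest library among the 10 genes. Controls stood at 64.9, 109 and 105 CPM and hypertension at 68.6, 97.8 and 96.1 CPM. Atherosclerosis libraries held 55.6, 47.5 and 76.5 CPM, and the MI libraries 18.6, 83.7 and 72.7 CPM. Atherosclerosis and MI overlapped the controls only through control replicate 2, and MI replicate 2 was by far the lowest of all libraries. The log2 fold change was −0.64 in atherosclerosis (SE 0.41, edgeR, adjusted p = 0.873), −0.68 after MI (SE 0.41, adjusted p = 1) and −0.09 in hypertension (SE 0.41, adjusted p = 0.982). Without MI replicate 2, the MI value was −0.25.

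*Il1r2*, the decoy receptor, was at 80.2, 75.1 and 58.6 CPM in controls, 50.8, 61.1 and 47.7 CPM in hypertension, 40.6, 57.6 and 106 CPM in atherosclerosis, and 196, 75.4 and 55.7 CPM after MI. One library, MI replicate 2, stood far above the other 11, while MI replicate 3 lay within the controls and replicate 4 just below them. The MI difference of log2 0.61 (SE 0.41, edgeR, adjusted p = 1) became −0.12 when that library was left out. In hypertension the value was −0.42 (SE 0.41, adjusted p = 0.951) and in atherosclerosis −0.07 (SE 0.41, adjusted p = 0.99). *Il1r1*, the signaling receptor and the lowest of the genes per length, stood between 3.20 and 7.34 CPM, from 59 to 138 counts, again with its highest value in MI replicate 2, and differed from controls by log2 0.38 after MI (SE 0.31), 0.18 in hypertension (SE 0.31) and 0.12 in atherosclerosis (SE 0.31), with adjusted p between 0.965 and 1 (edgeR). *Il1rap*, the accessory chain, was steady at 17.02 to 26.9 CPM, with means of 23.3 ± 3.60 CPM in controls, 18.5 ± 1.84 in hypertension, 22.3 ± 3.20 in atherosclerosis and 19.8 ± 3.14 after MI (SD, n = 3 each). Its 95% interval in hypertension ran from log2 −0.71 to 0.05.

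Of the inflammasome genes, *Casp1* had the smallest errors. It stood at 31.2, 34.8 and 33.98 CPM in controls, 29.8, 27.4 and 26.04 CPM in hypertension, 26.2, 32.1 and 25.6 CPM in atherosclerosis, and 29.9, 34.8 and 32.6 CPM after MI. Every hypertension library lay below every control, though by little, and 2 of 3 atherosclerosis libraries did too. The log2 fold change was −0.26 in hypertension (SE 0.14, edgeR, adjusted p = 0.951, interval −0.56 to 0.03), −0.25 in atherosclerosis (SE 0.14, adjusted p = 0.86) and −0.04 after MI (SE 0.14, adjusted p = 1, interval −0.33 to 0.26). *Nlrp3*, the sensor, was at 10.9, 14.9 and 11.7 CPM in controls and 8.08, 8.14 and 10.5 CPM in hypertension, groups that did not overlap either, with a log2 fold change of −0.49 (SE 0.33, adjusted p = 0.951). In atherosclerosis *Nlrp3* ranged from 5.83 to 18.6 CPM, which took in all the other libraries, and after MI from 9.10 to 12.1 CPM.

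*Pycard* was at 77.4, 81.4 and 65.6 CPM in controls and 87.0, 82.7 and 88.6 CPM after MI, so that the MI libraries lay just above the controls (log2 0.20, SE 0.24, edgeR, adjusted p = 1). Hypertension, at 68.4 to 81.1 CPM, lay within the controls, and atherosclerosis spread on both sides of them, from 46.3 CPM in replicate 4 to 111 CPM in replicate 2. *Il18*, the cytokine cut by the same protease, was steady at 8.86 to 12.9 CPM in 11 libraries and reached 18.2 CPM in atherosclerosis replicate 3. Its difference from controls was log2 0.38 in atherosclerosis (SE 0.23, edgeR, adjusted p = 0.873) and −0.01 in both hypertension and MI, where the intervals stayed within −0.51 and 0.50. *Bco2*, on the opposite strand over *Il18*, held 12 to 73 counts, at most 33.2% of the *Il18* count of a library.

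**Figure D2:**
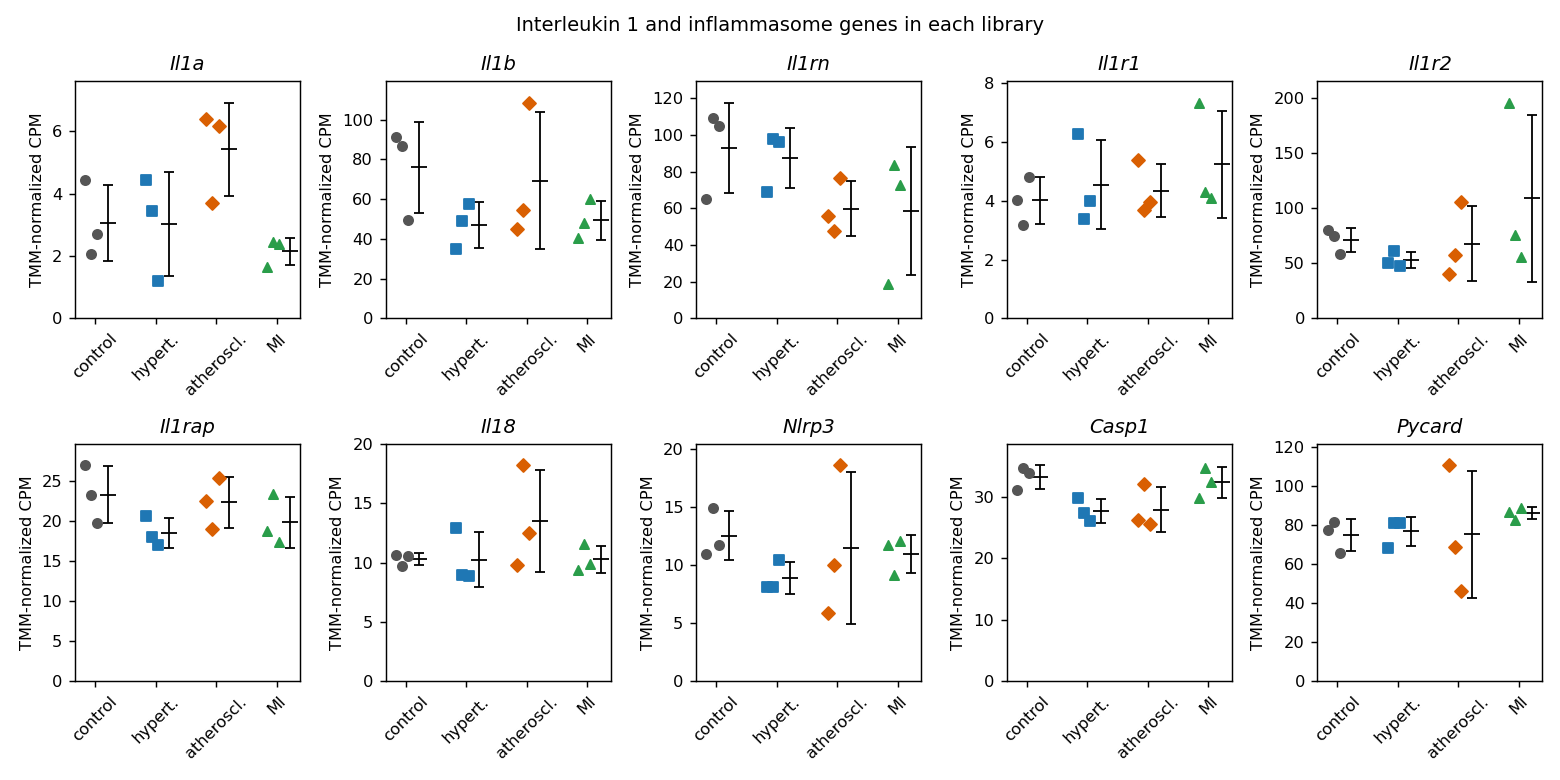
TMM-normalized CPM (y axis, from 0 in each panel) of the 10 genes in the 3 libraries of each group (x axis), with the group mean and SD beside the points. Groups overlap in nearly every panel, and the high *Il1r2* point (196 CPM) and the low *Il1rn* point (18.6 CPM) belong to the same library, MI replicate 2.

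Of all 15999 genes tested (edgeR quasi-likelihood, Benjamini-Hochberg), the share that passed an adjusted p of 0.05 was 0% for hypertension, 0.144% for atherosclerosis and 0% for MI. Of the 10 IL-1 and inflammasome genes, 0 passed in each of the 3 comparisons. At an unadjusted p under 0.05, which 3.71% of all genes met in hypertension, 5.97% in atherosclerosis and 2.8% after MI, 0 of 10 were found in each. The test of any difference among the 4 groups passed 0.144% of all genes and 0 of these 10 at the adjusted threshold, and at the unadjusted one 7.48% of all genes and 1 of these 10, *Il1a* (edgeR adjusted p = 0.66). Groups that did not overlap, which 16.8% of all genes showed in hypertension, 9.51% in atherosclerosis and 8.86% after MI, were found for 2 of the 10 in hypertension (*Nlrp3* and *Casp1*, both below controls), 0 in atherosclerosis and 1 after MI (*Pycard*, above). The exact two-sided permutation p was 0.1 for each of these 3, the smallest that 3 libraries against 3 allow. Against the shares over all genes, 2 of 10 in hypertension and 1 of 10 after MI stood near the background.

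In direction, 8 of the 10 genes were lower in hypertension, 6 in atherosclerosis and 7 after MI, none of them past the test. Their median log2 fold change was −0.18, −0.06 and −0.12, where the median over all genes tested was −0.01, 0.01 and 0. The intervals set what these libraries could have shown. They were widest for *Il1rn*, *Il1r2* and *Il1a*, reaching −1.56 for *Il1rn* after MI and 1.74 for *Il1a* in atherosclerosis, and narrowest for *Casp1*, whose bounds stayed within −0.56 and 0.26 in all 3 comparisons.

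**Figure D3:**
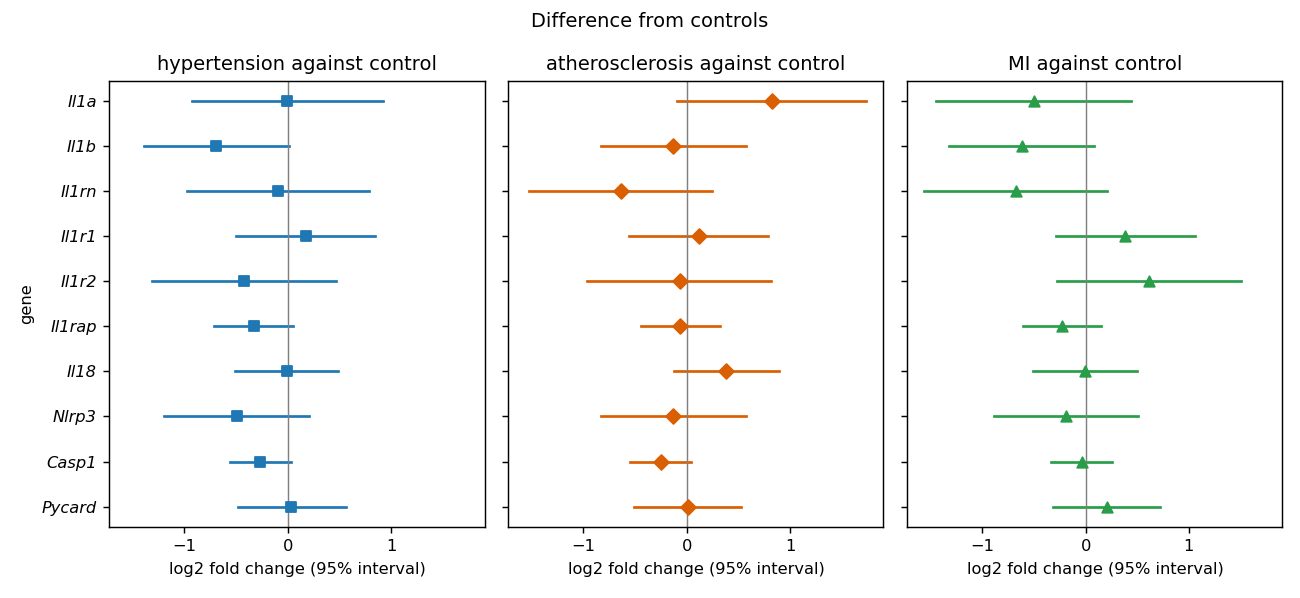
Log2 fold change against controls (x axis, points) with its 95% interval (lines) for the 10 genes (y axis) in hypertension, atherosclerosis and MI, from 3 libraries a group. All 30 intervals include 0, and *Casp1* has the shortest lines.

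The same model also gave the contrasts between diseases. At the adjusted threshold, 0.0625% of all genes passed between atherosclerosis and hypertension, 0% between MI and hypertension and 0.269% between MI and atherosclerosis, and 0 of the 10 genes passed in any of these. At an unadjusted p under 0.05 the shares of all genes were 5.94%, 8.41% and 12.7%, and 0, 1 and 1 of the 10 were found. The one between MI and atherosclerosis was *Il1a*, whose MI libraries (1.66 to 2.43 CPM) all lay below the atherosclerosis libraries (3.70 to 6.40 CPM), by log2 −1.33 (SE 0.44, edgeR adjusted p = 0.251, 95% interval −2.27 to −0.39). The one between MI and hypertension was *Il1r2*, higher after MI by log2 1.03 (SE 0.42, edgeR adjusted p = 0.581), which fell to 0.30 without MI replicate 2. Libraries that did not overlap were seen for 10.9% of all genes between atherosclerosis and hypertension, 19.6% between MI and hypertension and 13.7% between MI and atherosclerosis. Among the 10 this held for 0, for 2 (*Casp1* and *Pycard*, higher after MI) and for 1 (*Il1a*).

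Ratios within a library do not depend on its scaling. The ratio of antagonist to ligand, *Il1rn* to *Il1b* in RPKM, ranged from 0.158 in MI replicate 2 to 0.729 in control replicate 4, with a median of 0.429. Hypertension libraries were even (0.681, 0.691 and 0.576), controls were not (0.245, 0.434 and 0.729), and the groups overlapped. Per length, *Il1b* thus exceeded its antagonist in all 12 libraries, which rests on the longer exons counted for *Il1rn*. In CPM, mean *Il1rn* was above mean *Il1b* in controls (93.1 against 75.9), hypertension (87.5 against 47.0) and MI (58.3 against 49.5). It was below in atherosclerosis (59.8 against 69.3). *Il1b* exceeded *Il1a* between 7.30 and 49.5 times. Per length, the decoy *Il1r2* exceeded the signaling receptor *Il1r1* between 25.2 and 89.1 times, and *Il1rap* exceeded *Il1r1* between 1.42 and 4.06 times. These sizes also rest on exon lengths, 6363 bases for *Il1r1* against 1908 for *Il1r2* and 11360 for *Il1rap*. In CPM, without length, medians were 59.87 for *Il1r2*, 20.14 for *Il1rap* and 4.07 for *Il1r1*. These 4 ratios were compared with controls in 12 exact two-sided permutation tests. With 3 libraries against 3, the smallest p such a test allows is 0.1, so none could pass the threshold whatever the ratios. Their outcome therefore does not decide whether a ratio differed. That smallest unadjusted p of 0.1 was reached for *Il1b* to *Il1a* in atherosclerosis (13.6 ± 5.64 against 28.0 ± 13.7, SD, n = 3 each). No Benjamini-Hochberg adjusted p was under 0.8.

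Markers of several cell types moved with some of these genes and not with others. Those of neutrophils came first, being the most abundant. Their sum was 66650, 52450 and 49910 CPM in controls and lower, at 42920, 41610 and 26770 CPM, in every hypertension library. It ran from 24840 to 63840 CPM in atherosclerosis and from 51610 to 84450 CPM after MI, with all 14 genes above 3 counts in every library. Over the 12 libraries, log2 values correlated with *Il1r2* at a Pearson's r of 0.69 (Spearman's rho of 0.61, r of 0.57 without the 2 libraries farthest out) and with *Casp1* at 0.67 (rho 0.64, r of 0.40 without 2). With *Il1b* r was 0.05 (rho 0.02, r of −0.14 without 2) and with *Il1rn* it was −0.45 (rho −0.34, r of −0.73 without 2). Over all 12 libraries, other lists had an r at least as large in size with *Il1r2*, *Casp1*, *Il1rn* and *Il1b*. Without 2 libraries, among the lists for which that r is given, this held only for *Casp1*. *Il1r2* had an r of 0.77 with monocyte markers (rho 0.50, r of 0.39 without 2), −0.82 with B cell markers (rho −0.60, r of −0.38 without 2) and −0.82 with basophil and mast cell markers (rho −0.80, r of −0.52 without 2). *Casp1* had an r of 0.78 with T and NK cell markers (rho 0.76, r of 0.84 without 2). *Il1rn* had an r of −0.53 with megakaryocyte markers (rho −0.75, r of −0.58 without 2). It also had 0.52 with B cell markers (rho 0.13) and −0.48 with monocyte markers (rho 0.1). For *Il1b* the r farthest from 0 was −0.43, with macrophage markers (rho −0.47). All these points share libraries, scaling and disease groups, and the values are descriptions. With the neutrophil sum as a covariate in the model, *Il1r2* stood at log2 0.14 in hypertension, 0.35 in atherosclerosis and 0.31 after MI, and at 0.17 between MI and hypertension, where it had been 1.03. *Il1rn* moved from −0.09 to −0.49 in hypertension and from −0.64 to −0.91 in atherosclerosis. *Il1a* between MI and atherosclerosis stood at −1.41, and in hypertension *Il1b* at −0.74, *Casp1* at −0.20 and *Nlrp3* at −0.40. Monocyte markers (10 genes) were also highest in MI replicate 2, at 2826 CPM against 1479 CPM in the lowest library. With the monocyte sum as covariate, *Il1r2* stood at −0.02 in hypertension, 0.11 in atherosclerosis, 0.02 after MI and 0.04 between MI and hypertension. *Il1rn* stood at −0.42, −0.83 and −0.65 in the 3 comparisons with controls, and *Il1r1* at 0.20 after MI. No member passed the adjusted threshold with either covariate. Neutrophil sums in hypertension, at most 42920 CPM, lay below those of every control and every MI library. Monocyte sums in hypertension, at most 1620 CPM, lay below those of every MI library, at least 1882 CPM. In these comparisons group and covariate cannot be told apart, and the part of any cell type was not tested.

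**Figure D4:**
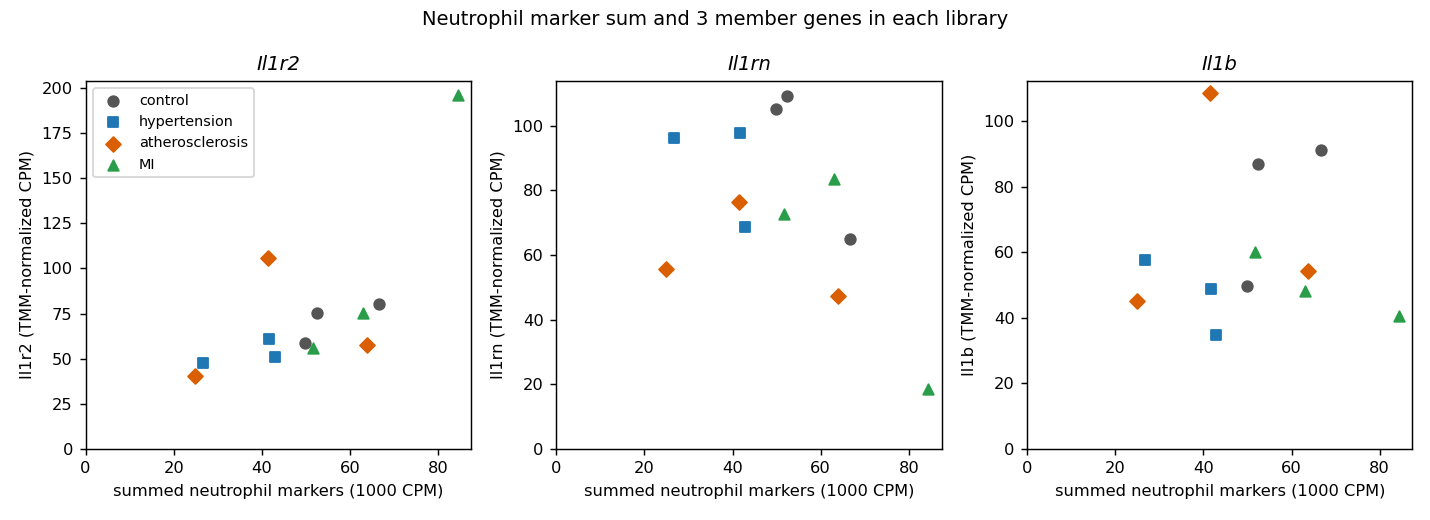
Level of *Il1r2*, *Il1rn* and *Il1b* (y axes, TMM-normalized CPM) against the summed level of 14 neutrophil markers (x axis, 1000 CPM), 1 point per library, coloured by group. MI replicate 2, at 84450 CPM of neutrophil markers, has the highest *Il1r2* and the lowest *Il1rn* value, and the r for *Il1b* was 0.05.

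Among themselves, *Il1b* and *Nlrp3* varied together (r = 0.72, rho = 0.72, r = 0.63 without 2 libraries, n = 12), and *Il1r1* ran opposite to *Il1b* (r = −0.64, rho = −0.69) and to *Il1rn* (r = −0.68, rho = −0.49). The gene most like *Il1b* over the 12 libraries was *Arg2* (Pearson's r = 0.914 of log2 CPM), an arginase, followed by *Rufy4*, *Zfp322a*, *Emsy* and *Ccdc157* (0.818 to 0.902). *Il1rn* was most like *Hexa* (0.967), a lysosomal hexosaminidase subunit, then *Stbd1*, *Bcar3*, *Pbxip1* and *Lman2l* (0.945 to 0.965). *Il1r1* was most like *Il20rb* (0.941), *Tent2*, *Smim7*, *Copb2* and *Map7d2* (0.902 to 0.926 for the last 4). *Il1r2* was most like *Pnpla2* (0.966), a triglyceride lipase, then *Mfsd1*, *Samsn1*, *Vim* and *Cited2* (0.950 to 0.958). These are the highest of 12986 coefficients a gene over 12 shared libraries, and such maxima are large by construction.

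The wider pathway was taken from 5 lists of 77 genes, of which 64 passed the filter. The adjusted threshold was passed by 0%, 0.144% and 0% of all genes in hypertension, atherosclerosis and MI against controls. An unadjusted p under 0.05 was met by 3.71%, 5.97% and 2.8% of all genes. Of the 64 listed genes, 0 passed the adjusted threshold in each comparison, and 4, 4 and 3 met the unadjusted one. Their median log2 fold change was −0.13, 0.08 and −0.02, with 41, 23 and 35 of 64 genes lower. The 13 genes that did not pass included *Il33*, *Csf2*, *Csf3* and *Nos2*. Among other ligands of the family, *Il36g* was below controls in every hypertension library (31.1 ± 6.92 against 51.1 ± 4.25 CPM, SD, n = 3 each, log2 −0.72, SE 0.46, edgeR adjusted p = 0.951), and *Il18bp*, which neutralizes IL-18, differed by at most log2 0.26. Of 5 other receptors tested, *Il18rap* after MI (log2 0.32), *Il1rl2* in atherosclerosis (−0.33) and *Il1rl1*, the IL-33 receptor, in atherosclerosis (0.30) were among those with the smallest unadjusted p.

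In hypertension, atherosclerosis and MI, 3.71%, 5.97% and 2.8% of all genes had an unadjusted p under 0.05. Of 21 genes of IL-1 receptor signaling, 1, 0 and 0 did. The one was *Irak4*, the first kinase of the pathway, at 21.9 ± 0.802 CPM in hypertension against 27.9 ± 2.97 in controls (SD, n = 3 each, log2 −0.35, SE 0.16, edgeR adjusted p = 0.951). *Irak2* was at 20.1 ± 0.709 CPM after MI against 28.4 ± 5.94 in controls (log2 −0.50, SE 0.24, adjusted p = 1), and *Irak1* in atherosclerosis was too uneven to read, at 303 ± 319 CPM. Of 21 other inflammasome genes, *Naip2*, a sensor of bacterial secretion systems, stood below controls in every library of hypertension (log2 −0.39, SE 0.14, adjusted p = 0.951) and atherosclerosis (−0.33, SE 0.14, adjusted p = 0.792). *Casp4*, the caspase that senses intracellular lipopolysaccharide, was at 10.9, 10.2 and 8.11 CPM in hypertension against 15.3, 12.8 and 11.99 CPM in controls (log2 −0.46, SE 0.17, adjusted p = 0.951). In all, 4 of these 21 genes lay below controls in every hypertension library and 1 above, where 16.8% of all genes did not overlap.

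Targets of IL-1 signaling, 15 of 20 tested, included the widest differences of these lists. *Tnfaip3*, which encodes the NF-κB inhibitor A20, stood at 23.3, 26.7 and 31.1 CPM in controls, 29.1, 22.6 and 27.7 CPM in hypertension, 36.9, 50.9 and 62.9 CPM in atherosclerosis, and 18.3, 25.9 and 20.6 CPM after MI. All 3 atherosclerosis libraries were above the other 9. Against controls the difference was log2 0.89 (SE 0.21, edgeR adjusted p = 0.205), which did not pass, although it did in the likelihood-ratio test that the study's methods name (adjusted p = 0.0298), in DESeq2 (0.0408), without the low-count filter (0.00357) and without atherosclerosis replicate 2 (0.0409). Between MI and atherosclerosis *Tnfaip3* was lower after MI by log2 −1.22 (SE 0.21, edgeR adjusted p = 0.0345), the one call among the 64 listed genes in the 3 comparisons between diseases. Of all genes, 0.269% passed between MI and atherosclerosis. *Il6* was at 5.87, 5.70 and 5.75 CPM in atherosclerosis against 2.07, 1.79 and 1.75 CPM in controls (log2 1.63, SE 0.32, edgeR quasi-likelihood adjusted p = 0.0973), a difference that passed in the likelihood-ratio test (adjusted p = 0.00134), in DESeq2 (0.000627) and without the filter (0.000828). In hypertension *Il6* was at 2.09, 3.68 and 3.66 CPM, also above every control (log2 0.75, SE 0.32, edgeR quasi-likelihood adjusted p = 0.951). *Ccl2*, a chemokine for monocytes, was below controls in every MI library (46.3 ± 7.22 against 73.3 ± 9.24 CPM, log2 −0.66, SE 0.20, adjusted p = 1) and every atherosclerosis library (51.5 ± 11.02 CPM, log2 −0.51, SE 0.20, adjusted p = 0.756). *Saa3*, an acute-phase gene, held 144, 3 and 54 counts in the MI libraries and 5, 1 and 1 in controls (adjusted p = 1). IL-1 is one of several inputs known to drive these targets.

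**Figure D5:**
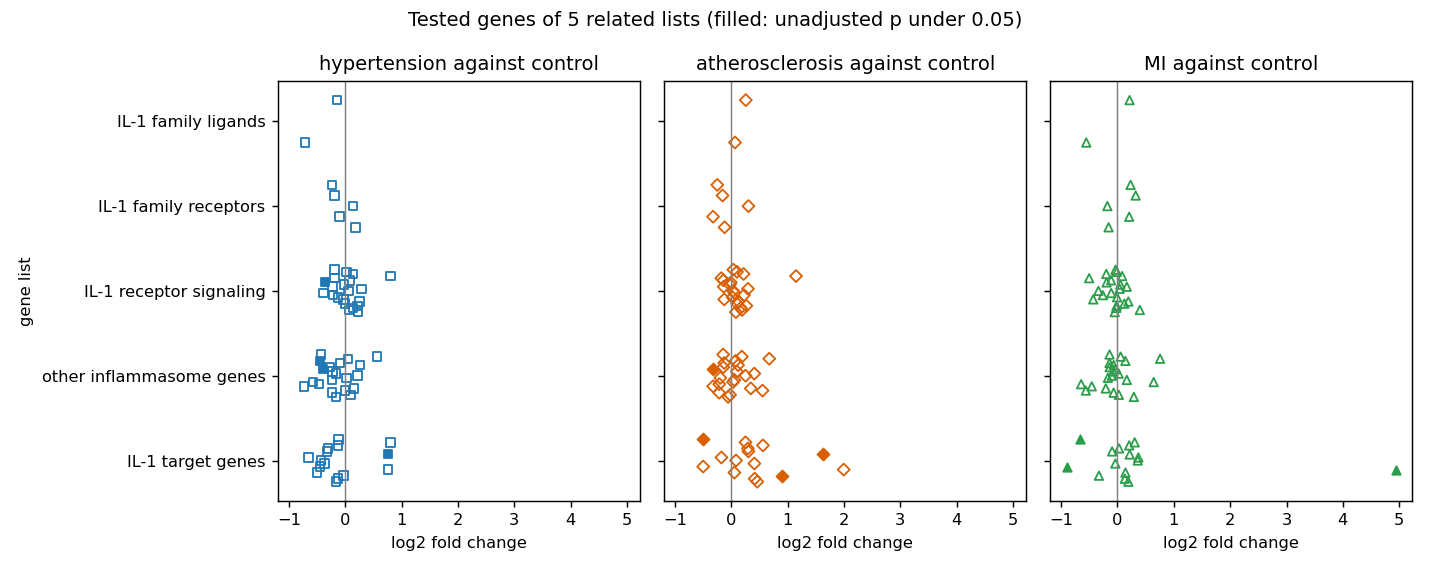
Log2 fold change against controls (x axis) of the 64 tested genes of 5 lists (y axis) in hypertension, atherosclerosis and MI, 1 marker per gene, filled where the unadjusted p was under 0.05. Most genes lie close to 0, and the far MI point at 4.94 is *Saa3*, which rests on few counts.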

How the data were processed

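The values analysed are raw gene counts as deposited: the authors aligned single-end reads to GRCm38 with STAR 2.7.3a and counted them per Ensembl gene, with each mouse as 1 library. Alignment and gene counting are thus already in the values, normalization is not, and which of STAR's strand settings was taken is not stated. All 12 columns were matched to the labels by group and replicate number.

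Counts of 3 libraries against 3 were compared in R 4.3.3 with edgeR 4.0.16 (filterByExpr, TMM, 1 coefficient per group, glmQLFit and glmQLFTest, two-sided), with Benjamini-Hochberg adjustment over 15999 genes and a threshold of 0.05. The fit left 8 residual degrees of freedom. Exon lengths for RPKM were the joined lengths of all exons of a gene in GENCODE. Depth and the floor of 3 counts are given with the results. The steps were tested on simulated data. DESeq2 1.42.0 and the other alternatives are given at the end.

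The member genes and lists were chosen with earlier results of these data known. Named besides the members are, from each list, genes past the threshold or the 2 smallest p, and the 5 protein-coding genes most like *Il1b*, *Il1rn*, *Il1r1* and *Il1r2*. The values of *Ccl2* in atherosclerosis and of *Tnfaip3* between diseases were chosen after they were seen. *Cdh5*, *Pecam1* and *Ptprc* were named as markers of the sort.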

Additional observations from a re-analysis of the deposited data

Results flagged for a closer look

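*Tnfaip3* differed between MI and atherosclerosis in the test of that difference itself (log2 −1.22, SE 0.21, edgeR quasi-likelihood test, Benjamini-Hochberg adjusted p = 0.0345), with all 3 MI libraries below all 3 atherosclerosis libraries. The adjusted p passed the threshold in 7 of 15 alternatives and missed it in 8, with log2 values between −1.41 and −1.02 and adjusted p between 1.8e-06 and 0.21.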

How the results depend on the processing

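Under every alternative, 0 of the 10 member genes passed the adjusted threshold in hypertension, atherosclerosis and MI against controls. Without a low-count filter, 4 of them (*Il1a*, *Il1b*, *Il1rn* and *Il1r2*) passed in the test of any difference, 2 (*Il1a* and *Il1r2*) between MI and atherosclerosis and 1 (*Il1r2*) between MI and hypertension. The cause was not tested. That setting tested 36003 genes, where the main test had 15999. It called 170 genes in hypertension, 432 in atherosclerosis, 130 after MI and 990 in any difference, against 0, 23, 0 and 23. Between diseases it called 790 genes for MI and atherosclerosis and 422 for MI and hypertension. The likelihood-ratio test, which the study's methods name, gave 81 in atherosclerosis, 1 after MI and 234 in any difference, and DESeq2 gave 81, 1 and 227. With only the groups compared in the fit, 4 genes were called in atherosclerosis and 1 after MI. The neutrophil covariate gave 1 in hypertension, and the monocyte covariate gave 6 in atherosclerosis and 7 in any difference. The replicate block gave 7 and 5. Deviations of same-numbered libraries from their group means correlated between −0.28 and 0.30, with 5 of 18 pairs over 0.1. For differently numbered libraries the range was −0.30 to 0.39, with 12 of 36 pairs over 0.1. These values do not decide whether libraries were paired, and the block changed no member's call. Leaving out 1 library gave 2 to 34 genes in atherosclerosis and 7 to 37 in any difference. Between diseases, counts over the alternatives ran from 3 to 235 (atherosclerosis and hypertension, 10 in the main test), 0 to 422 (MI and hypertension, 0) and 5 to 790 (MI and atherosclerosis, 43). Called genes of the 5 lists ran from 0 to 1 in hypertension, 0 to 3 in atherosclerosis (*Il6*, *Tnfaip3* and *Irak1*) and 0 to 2 after MI.

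Of 32 member values, 17 kept their direction under every alternative. The values that turned sign were not only small ones. *Il1r2* after MI, at log2 0.613 in the main test, fell to −0.122 when 1 library was left out. *Il1r2* in hypertension went from −0.422 to 0.139 with the neutrophil covariate. Without the filter, *Il1a* was at log2 0.013 and *Il18* at 0.005 in hypertension. With the neutrophil covariate, hypertension values turned for *Il1a* (0.048), *Il1r2* (0.139), *Il18* (0.273) and *Pycard* (−0.187), and atherosclerosis values for *Il1r2* (0.351) and *Pycard* (−0.193). With the monocyte covariate, *Il1r2* (0.109) and *Pycard* (−0.009) turned in atherosclerosis and *Il18* (0.074) after MI. *Pycard* turned in atherosclerosis with the replicate block (−0.026) and *Il18* after MI with at least 10 counts in every library (0.005). Leaving out 1 library moved hypertension values from −0.386 to 0.372 (*Il1a*), −0.294 to 0.060 (*Il1rn*), −0.126 to 0.353 (*Il1r1*), −0.213 to 0.088 (*Il18*) and −0.042 to 0.116 (*Pycard*). Atherosclerosis values moved from −0.609 to 0.115 (*Il1b*), −0.059 to 0.274 (*Il1r1*), −0.537 to 0.210 (*Il1r2*), −0.166 to 0.054 (*Il1rap*), −0.666 to 0.205 (*Nlrp3*) and −0.368 to 0.260 (*Pycard*). MI values moved from −0.122 to 0.928 (*Il1r2*), −0.098 to 0.055 (*Il18*) and −0.095 to 0.016 (*Casp1*). At 24 to 144 counts for *Il1a* and 59 to 138 for *Il1r1*, depth adds to the spread between mice for these genes.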
